A study of Mus musculus with 6 samples.

Results

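Blood vessels of the hippocampus are built from endothelial cells, which line the lumen and form the blood-brain barrier, and from mural cells wrapped around them, which are pericytes on capillaries and smooth muscle cells on arteries. A set of 9 genes that mark these cells was followed here: Pdgfrb, Abcc9, Rgs5, Vtn, Anpep and Acta2 for mural cells, and Cldn5, Flt1 and Pecam1 for endothelium. They were chosen as textbook markers, with earlier results of these data known, and taken by gene identifier from the tables of exon events. Of the 9, 8 had events, out of 32348 gene identifiers in all, and 7 were high enough to be tested among 11368 genes. Cldn5, the barrier claudin gene, a single stretch of 1416 bases on chromosome 16 (18776847 to 18778262), had no event in these tables and is not analysed here.

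The 6 libraries came from the hippocampus of male C57BL/6 mice aged 14 months. Of these, 3 were from mice given dihydrotestosterone (DHT), an androgen that aromatase cannot turn into oestrogen, by daily injection under the skin for 14 days, and 3 were from mice injected with medical corn oil over the same time. The labels do not say whether a library is 1 animal or a pool, so p-values measure only how these libraries scatter, and that scatter may be technical in part. Libraries are called DHT 1 to 3 and oil 1 to 3, numbers that serve as names and pair nothing.

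Pericytes depend on PDGF-B released by endothelial cells, which acts through the receptor PDGFRB on the pericyte surface. Endothelial cells in turn respond to VEGF from neurons and glia through the receptor KDR, and FLT1 binds VEGF tightly with little kinase output, so it acts largely as a trap. ABCC9 is the regulatory subunit of the potassium channel that sets pericyte and smooth muscle tone. RGS5 shuts down signalling of G proteins in mural cells, vitronectin (Vtn) is a matrix protein secreted by pericytes, aminopeptidase N (Anpep) is an ectoenzyme of pericytes that myeloid cells and fibroblasts also carry, and Acta2 is the smooth muscle actin. PECAM1 holds endothelial cells together and also occurs on platelets and leukocytes.

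Promoter sequences are shown for the 3 members whose RefSeq window (GRCm38.p6, 250 bases before to 50 after the annotated start, written along the gene) held one of the motifs searched. Capitals mark matches on either strand to TATAAA, to TGACGTCA (the cyclic AMP response element), or to AGAACA (the half-site of the androgen and glucocorticoid response element). In the Vtn window the matches to TATAAA on the 2 strands overlap.
Flt1 (chr5:147725962-147726261, minus strand): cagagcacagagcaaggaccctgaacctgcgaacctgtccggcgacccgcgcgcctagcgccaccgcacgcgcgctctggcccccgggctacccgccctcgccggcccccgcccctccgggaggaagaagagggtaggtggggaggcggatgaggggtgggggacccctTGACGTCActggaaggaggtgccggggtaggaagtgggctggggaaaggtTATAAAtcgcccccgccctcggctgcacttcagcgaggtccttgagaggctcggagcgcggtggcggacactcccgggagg
Vtn (chr11:78498870-78499169, plus strand): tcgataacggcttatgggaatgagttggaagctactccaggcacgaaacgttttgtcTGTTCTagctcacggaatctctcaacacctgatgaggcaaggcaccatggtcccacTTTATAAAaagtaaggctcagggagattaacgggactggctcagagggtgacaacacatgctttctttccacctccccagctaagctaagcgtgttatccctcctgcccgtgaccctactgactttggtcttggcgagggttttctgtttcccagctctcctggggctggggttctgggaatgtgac
Acta2 (chr19:34255324-34255623, minus strand): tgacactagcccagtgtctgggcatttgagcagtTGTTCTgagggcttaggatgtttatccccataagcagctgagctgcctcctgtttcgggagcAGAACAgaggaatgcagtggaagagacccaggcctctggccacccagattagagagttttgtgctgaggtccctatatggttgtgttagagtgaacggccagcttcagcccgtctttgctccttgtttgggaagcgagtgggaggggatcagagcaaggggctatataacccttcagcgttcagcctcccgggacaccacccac
The Flt1 window held TGACGTCA beginning 81 bases before the start and TATAAA beginning 31 bases before it. Acta2 held 2 half-sites AGAACA, beginning 216 and 154 bases before the RefSeq start of its window. In these libraries the 2 sites lay inside the assembled first exon of Acta2, described below. Vtn held 1 half-site, beginning 193 bases before its start. Among the 7 members with a window, AGAACA was found in 2, TATAAA in 2 and TGACGTCA in 1. The share among all 32851 windows was 19.0% for AGAACA, 13.6% for TATAAA and 1.79% for TGACGTCA. Exact matches to the full palindromic androgen response element, to the consensus CArG box (CC, then 6 bases of A or T, then GG) and to the ETS core CCGGAA were found in 0 of the 7, and in 0.00913%, 1.63% and 14.9% of all windows. CArG elements that depart from this consensus, as those known in the Acta2 promoter do, were not counted. Pdgfrb and Pecam1 were not among the windows.

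First exons assembled in these libraries met the starts on which the promoter windows are set for part of the members. In Rgs5 (chromosome 1, 169655501 to 169695813) and Vtn (chromosome 11, 78499120 to 78502325) the main first exon began at that start itself. In Flt1 (chromosome 5, 147561604 to 147726438), Abcc9 (chromosome 6, 142587862 to 142702766) and Acta2 (chromosome 19, 34240336 to 34255585) the start of the window lay inside the annotated span. Distances are from the start of the window. The main first exon began 23 bases after it in Flt1 (147726011), 41 bases before it in Abcc9 (142702274) and 217 bases before it in Acta2 (34255373). This first exon of Acta2 (34255290 to 34255590) carried 98.7% of its first-exon signal and held the 2 AGAACA half-sites of the window. Anpep (chromosome 7, 79821803 to 79848210) differed: 94.0% of its first-exon signal lay in an exon that began 5858 bases inside the gene, and the exon at the RefSeq start carried 5.96%. For Pecam1 (chromosome 11, 106654213 to 106715281) the listed first exon lay upstream of the annotated gene (106750143 to 106750628) and held at most 0.0300 FPKM, so its gene value came from the last exon.

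Levels are given in FPKM (fragments per kilobase of exon and M (mega) mapped fragments), which allows comparison between genes. A gene value is the larger of the summed first-exon and the summed last-exon FPKM of a library. Rgs5 was the most abundant member at 9.55 ± 1.48 FPKM over the 6 libraries (SD, n = 6), followed by Vtn at 8.28 ± 0.735 and Flt1 at 5.55 ± 0.867. Pdgfrb at 2.97 ± 0.576, Pecam1 at 2.62 ± 0.428 and Acta2 at 2.35 ± 0.382 formed a middle tier, above Abcc9 at 0.822 ± 0.150 and Anpep at 0.480 ± 0.112. Neighbours in this order overlapped over the 6 libraries for Rgs5 and Vtn (Rgs5 was higher in 5 of 6), for Pdgfrb and Pecam1 (4 of 6) and for Pecam1 and Acta2 (4 of 6). The other 4 steps held in all 6 libraries without overlap. The plot of member levels by library shows these tiers.

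**Figure D1:**
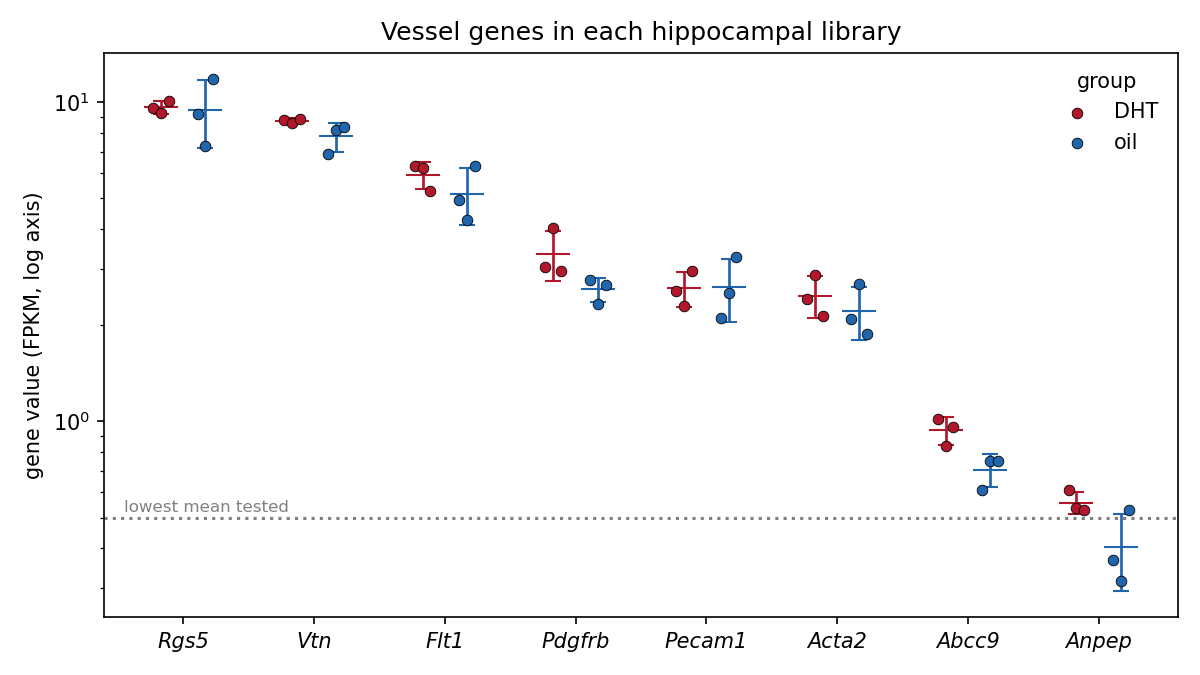
Gene value of each vessel gene in FPKM on a log axis, with 1 point per library, DHT in red and oil in blue, and bars for the mean ± SD (n = 3 per group). The dotted line is the lowest mean that was tested (0.5 FPKM). Rgs5, Vtn and Flt1 lie highest and Abcc9 and Anpep lowest, and DHT and oil points lie apart for Vtn, Pdgfrb and Abcc9.

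The comparison of DHT with oil asked whether the androgen altered these vessel genes. No member reached an adjusted p of 0.05 with limma, against a background of 0.0176% of all genes tested (2 of 11368). Of the 7 tested members 6 were higher after DHT and 1 was lower; their median difference was 0.16 on the log2 scale. Over all genes 63.6% were higher, with a median of 0.07. With each library centred on its median, 5 of the 7 members and 51.4% of all genes were higher, with medians of 0.10 and 0.01. Fold changes here are on the scale of FPKM + 0.5, which understates those of low genes. Because the RNA is from whole tissue, fewer cells of a type and less RNA per cell cannot be told apart.

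The PDGF receptor gene Pdgfrb (chromosome 18) stood at 3.05, 4.02 and 2.97 FPKM after DHT and at 2.77, 2.33 and 2.67 after oil, so all 3 DHT values were above all 3 oil values, with DHT 2 highest. The log2 fold change was 0.31 (95% interval -0.03 to 0.65, limma adjusted p = 0.659). The excess of DHT 2 was not seen at the last exon: last-exon values of Pdgfrb were 3.05, 2.41 and 2.97 against 2.41, 2.33 and 2.67 FPKM, and there the groups overlapped, with a log2 fold change of 0.15. Without DHT 2 the log2 fold change was 0.19 (limma adjusted p = 0.779). A retained intron of Pdgfrb was listed in DHT 2 at 0.361 FPKM and in oil 1 at 0.180 FPKM, and at 0 in the other 4 libraries.

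The channel subunit gene Abcc9 stood at 1.02, 0.835 and 0.963 FPKM after DHT and at 0.609, 0.754 and 0.752 after oil. The groups did not overlap, in first exons or in last exons. The log2 fold change was 0.26 (95% interval -0.08 to 0.59, limma adjusted p = 0.685), and the 95% interval thus included 0. A 176-base exon near the 3' end of Abcc9 (chromosome 6, 142593967 to 142594142) was listed at 0 in all 6 libraries, while the form that skips it held all of the signal, from 0.586 to 1.01 FPKM. Alternative use of terminal exons of this gene is known to give the SUR2A and SUR2B proteins, SUR2B being the form of vascular smooth muscle; these events were not matched to named proteins. The pore subunit that ABCC9 binds, encoded by Kcnj8, was at 0.698 ± 0.178 FPKM after DHT and 0.556 ± 0.0511 after oil (SD, n = 3 per group).

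Vtn, the matrix protein gene, was at 8.79, 8.61 and 8.86 FPKM after DHT and 6.88, 8.18 and 8.38 after oil. All DHT values were above all oil values, the nearest pair being DHT 2 and oil 3 (log2 fold change 0.16, 95% interval -0.10 to 0.42, limma adjusted p = 0.726). This separation rested on how first exons were summed. In DHT 1 a first exon of 14 bases held 1.62 FPKM and was listed at 0 in the other 5 libraries. Last-exon values of Vtn were 6.35, 8.45 and 8.14 FPKM against 6.03, 7.39 and 8.38, which overlap, and their log2 fold change was 0.07.

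Without overlap between groups were thus 3 of the 7 tested members, all higher after DHT, where 12% of all genes tested were higher without overlap and 3.15% lower, 15.1% in all. With last exons only, this held for Abcc9 alone among these 3.

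Rgs5, the most abundant member, was at 9.60, 9.23 and 10.1 FPKM after DHT and 9.21, 7.29 and 11.8 after oil. The oil libraries enclosed the DHT libraries, with both the highest and the lowest value of the 6 (log2 fold change 0.05, 95% interval -0.36 to 0.46, limma adjusted p = 0.954, and -0.01 with centred libraries). Acta2, the smooth muscle actin gene, was at 2.42, 2.87 and 2.14 FPKM against 2.09, 2.69 and 1.88. Its groups overlapped and the highest libraries were DHT 2 and oil 2 (log2 fold change 0.13, 95% interval -0.24 to 0.51, limma adjusted p = 0.839). Anpep was below the level tested. It stood at 0.608, 0.534 and 0.527 FPKM after DHT and at 0.369, 0.316 and 0.527 after oil, where oil 3 reached the lowest DHT value.

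Flt1, the VEGF trap receptor gene of endothelium, was at 6.33, 6.20 and 5.25 FPKM after DHT and 4.93, 4.26 and 6.32 after oil. Oil 3 was level with the highest DHT library and the groups overlapped (log2 fold change 0.19, 95% interval -0.18 to 0.57, limma adjusted p = 0.765). Without oil 3 the log2 fold change of Flt1 was 0.33 (limma adjusted p = 0.733). Pecam1 was at 2.56, 2.31 and 2.96 FPKM against 2.11, 2.53 and 3.27, again with oil 3 highest (log2 fold change -0.00, 95% interval -0.40 to 0.39, limma adjusted p = 0.998), and without oil 3 it was 0.14. Upper 95% bounds of the 7 fold changes ran from 1.31-fold for Pecam1 to 1.57-fold for Pdgfrb. Lower bounds ran from 0.758-fold for Pecam1 to 0.979-fold for Pdgfrb. Increases and decreases within these unadjusted intervals are compatible with the values of 3 libraries per group.

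**Figure D2:**
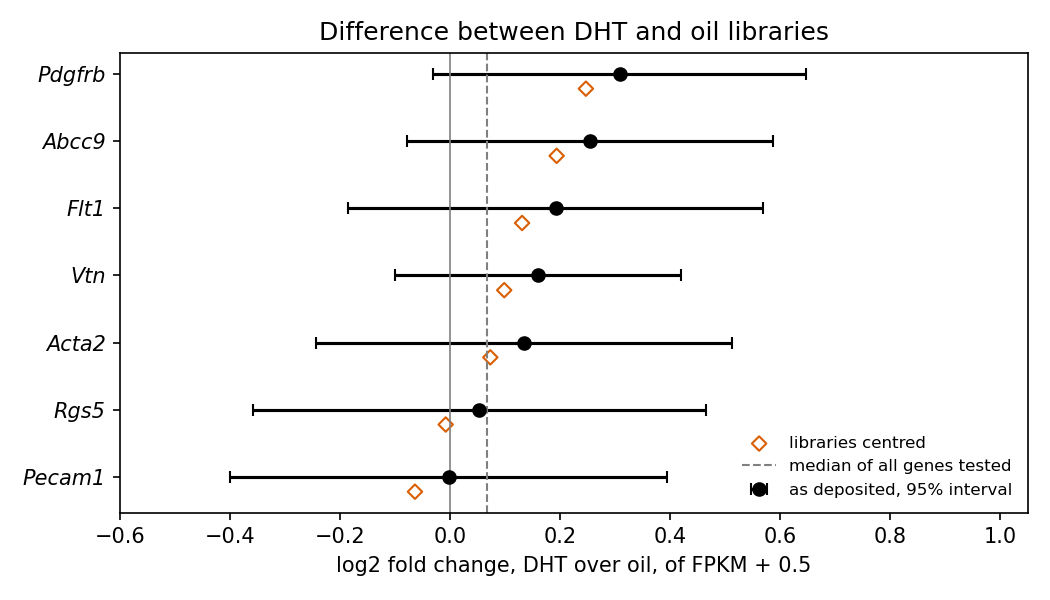
Log2 fold change of the 7 tested vessel genes, DHT over oil, on the scale of FPKM + 0.5 (points, with 95% intervals from limma), and the same with each library centred on its median (diamonds). The dashed line is the median of all genes tested (0.07). Every interval includes 0, from Pdgfrb at 0.31 to Pecam1 at -0.00.

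Pecam1 was also followed exon by exon. Its cytoplasmic tail, which carries the tyrosine motifs that recruit phosphatases, is encoded by short exons known to be spliced in several ways. In these libraries 2 of them, of 57 bases (chromosome 11, 106671742 to 106671798) and 23 bases (106662002 to 106662024), gave 3 forms, which together made up at least 98.6% of the last-exon signal. The form with both exons was at 0.483, 0.369 and 0.489 FPKM after DHT and 0.764, 1.18 and 0.608 after oil. It was lower in all 3 DHT libraries than in any oil library, at 0.447 ± 0.0677 against 0.851 ± 0.296 FPKM (SD, n = 3 per group, exact permutation test, two-sided, p = 0.1, the smallest that 3 against 3 allows). In limma's fit over 74779 events its log2 fold change was -0.49 (SE 0.28, adjusted p = 0.812), so it did not pass, where 0.0481% of events did and 6.07% had an unadjusted p under 0.05.

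The form of Pecam1 with the 57-base exon alone was at 1.13, 1.39 and 1.01 FPKM after DHT and at 0.659, 0.955 and 1.06 after oil, which overlapped. The form with neither exon was at 0.935, 0.545 and 1.46 FPKM against 0.657, 0.383 and 1.61, highest in DHT 3 and oil 3. Among transcripts that kept the 57-base exon, the 23-base exon was included in 29.9%, 20.9% and 32.6% after DHT and in 53.7%, 55.3% and 36.4% after oil. This share was lower after DHT without overlap, with means of 27.8% (SD 6.11) and 48.5% (SD 10.4) and a two-sided exact permutation p of 0.1, and the difference of -20.7 percentage points lay between -26.7 and -17.2 whichever library was left out. Because the groups did not overlap, leaving out 1 library could not change the sign of this difference. A length of 23 bases does not divide by 3, so this exon shifts the reading frame at the end of the tail, whereas the 57-base exon keeps it.

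A further exon of Pecam1, of 303 bases (106697052 to 106697354), was included in 93.2%, 94.2% and 94.1% after DHT and in 91.1%, 88.9% and 87.7% after oil. The groups did not overlap, with a mean of 93.8% (SD 0.582) facing one of 89.2% (SD 1.73) and a two-sided exact permutation p of 0.1. Of 22364 exon or intron choices over all genes, 2.9% had an inclusion share higher after DHT without overlap and 3.27% lower, 6.18% in all. Of the 5 choices of Pecam1 1 was higher and 1 lower in this way, and they were singled out after their values were seen. Shares of this kind come from the abundances assigned to assembled transcripts, and the reads behind them are not known here.

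**Figure D3:**
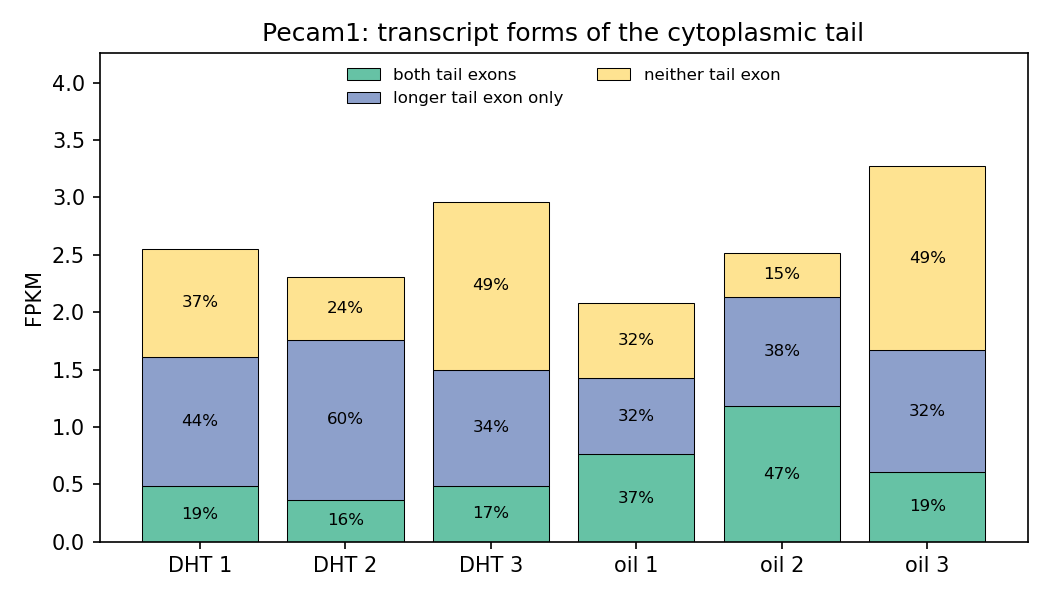
FPKM of the 3 tail forms of Pecam1 in each library, stacked, with the share of each form printed inside its bar segment. The form with both tail exons (bottom, green) is at 0.369 to 0.489 FPKM after DHT and 0.608 to 1.18 after oil. The share of this form and the total of the bars overlap between groups.

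Transcripts of Flt1 ended in 2 places. The last exon at the gene end (chromosome 5, 147561604 to 147564406) was at 5.30, 3.66 and 3.17 FPKM after DHT and 3.44, 3.74 and 3.49 after oil. A last exon of 4375 bases inside the gene (147635159 to 147639533) was at 1.03, 2.54 and 2.08 FPKM against 1.49, 0.521 and 2.83. The inner end thus took 16.2%, 40.9% and 39.7% of the last-exon signal after DHT and 30.3%, 12.2% and 44.8% after oil. It was low in DHT 1 and oil 2 and high in oil 3, with means of 32.3% ± 13.9 and 29.1% ± 16.3 (SD, n = 3 per group, exact permutation test, two-sided, p = 0.8). Flt1 transcripts that end within an intron are known to encode a soluble receptor that lacks the kinase; whether this end is one of those was not tested. A 132-base exon of Flt1 (147615129 to 147615260) lies beyond the inner end, so its use can be read only among transcripts that pass that end. Of these it was included in 100% in DHT 2, DHT 3 and oil 1, and in 87.2%, 79.2% and 77.4% in DHT 1, oil 2 and oil 3.

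**Figure D4:**
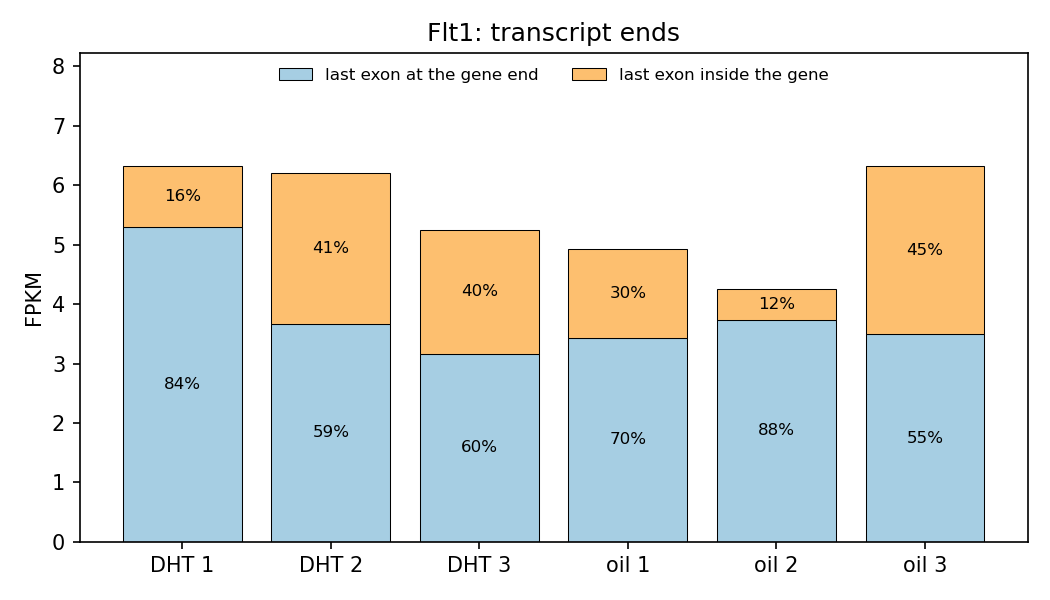
FPKM of the 2 transcript ends of Flt1 in each library, stacked, with shares printed inside the segments. The inner end (top, orange) takes from 12.2% (oil 2) to 44.8% (oil 3) and does not separate DHT from oil.

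Ligand genes of the same pathways gave the lowest p-values among the members and the lists of vessel-related genes, although none passed limma's test over all genes. Which cells of the tissue made this RNA was not tested. Of 11 tested genes of the PDGF and VEGF pathways 0 passed, 9 were higher and 2 lower after DHT (median log2 fold change 0.14; 8 of 11 higher with centred libraries), and 3 had an unadjusted p under 0.05, all of them higher. Of all genes 7.34% had such a p, 5.79% higher and 1.55% lower. Vegfa, the main growth factor of endothelium, was at 9.49, 6.90 and 7.31 FPKM after DHT and 5.72, 5.16 and 4.42 after oil (log2 fold change 0.58, SE 0.16, limma adjusted p = 0.652). Its relative Vegfb, which binds FLT1, was at 10.5, 9.43 and 11.1 FPKM against 7.76, 8.71 and 6.86 (log2 fold change 0.39, limma adjusted p = 0.655). Pdgfa, a PDGF chain that acts mainly through the alpha receptor, was at 4.34, 4.26 and 4.57 FPKM against 3.38, 3.31 and 2.86 (log2 fold change 0.41, limma adjusted p = 0.652). All 3 were higher in every DHT library than in any oil library. They were named for their p in these same libraries, so this order adds no support of its own. Of the 11 tested genes 4 were higher without overlap, where 12% of all genes tested were.

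Partners of the members are named for their role, outside the rule for naming genes. Pdgfb, the ligand of PDGFRB, was at 3.04, 2.43 and 2.72 FPKM after DHT and 2.19, 2.23 and 2.99 after oil, which overlap. Kdr, the signalling VEGF receptor, was at 1.17, 1.32 and 0.670 FPKM against 0.896, 0.953 and 0.814, which also overlap. Tek, the angiopoietin receptor gene of endothelium, was at 1.09, 0.964 and 1.19 FPKM against 0.825, 0.864 and 0.828, and Cdh5, the VE-cadherin gene of endothelial junctions, at 1.99, 1.87 and 1.82 against 1.42, 1.37 and 1.65. Both were higher in every DHT library than in any oil library. They were the 2 of 19 tested endothelial genes outside the member set that were higher without overlap. Of all genes tested 12% were. Notch3, the Notch receptor gene of mural cells, was at 1.19 ± 0.0719 FPKM (SD, n = 3) after DHT, and at 1.11, 1.01 and 0.00754 in the oil group, so the groups did not overlap and oil 3 stood far below the other 5 libraries. Of 10 tested pericyte genes outside the member set 3 were higher after DHT without overlap. The limma adjusted p was 0.684 for Tek, 0.658 for Cdh5 and 0.723 for Notch3, so none of them passed.

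Other genes with a role in the vessel wall were counted from lists. Their values are from whole tissue, so RNA of other cells can add to them, and its part was not tested. Of 10 tested pericyte genes outside the member set 0 passed limma's test, 9 were higher and 1 lower (median log2 fold change 0.20; 8 higher with centred libraries, median 0.14). The most abundant of them, Mcam, an adhesion gene of mural cells, and Zic1 were at 2.12 ± 0.528 against 2.20 ± 0.574 FPKM and 1.98 ± 0.0917 against 1.98 ± 0.0672 (SD, n = 3 per group). Of 6 smooth muscle genes 0 passed and 5 were higher (median 0.09), but with centred libraries 3 were (median 0.03). The 2 most abundant, Myl9 and Cald1, were at 3.01 ± 0.110 against 2.57 ± 0.254 and 1.92 ± 0.588 against 2.30 ± 0.751 FPKM. Of 19 endothelial genes 0 passed, 14 were higher and 5 lower (median 0.17; 13 higher with centred libraries, median 0.11). The surface antigen genes Ly6c1 and Ly6a were highest in oil 3, as Flt1 and Pecam1 were in the oil group: Ly6c1 stood at 11.5, 12.9 and 13.9 FPKM after DHT and at 7.74, 9.37 and 18.8 after oil.

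Of 17 barrier and transport genes 0 passed, 13 were higher and 4 lower (median 0.06), but with centred libraries 9 were higher (median 0.00063). Slc2a1, the glucose transporter gene of barrier endothelium that astrocytes also use, was the 1 gene among them with an unadjusted p under 0.05, and it was lower. It stood at 2.61, 1.75 and 1.48 FPKM after DHT and 6.60, 6.65 and 2.35 after oil, so oil 3 lay near the DHT values (log2 fold change -1.13, SE 0.38, limma adjusted p = 0.656). The 2 most abundant, Spock2 and Bsg, were at 68.3 ± 2.40 against 60.1 ± 5.07 and 56.9 ± 15.7 against 52.7 ± 8.09 FPKM. Of 24 genes of TGF-beta, Notch and Wnt signalling 0 passed and 17 were higher (median 0.13; 15 with centred libraries, median 0.07), with Ctnnb1 at 44.1 ± 12.8 against 29.4 ± 13.5 and Smad3 at 6.88 ± 0.533 against 6.41 ± 0.0579 FPKM. Of 17 basement membrane genes 0 passed and 13 were higher (median 0.13), against 10 with centred libraries (median 0.07), with Sparc at 33.7 ± 10.7 against 35.5 ± 3.86 and the integrin gene Itgav at 8.80 ± 2.19 against 10.7 ± 0.943 FPKM (SD, n = 3 per group throughout).

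**Figure D5:**
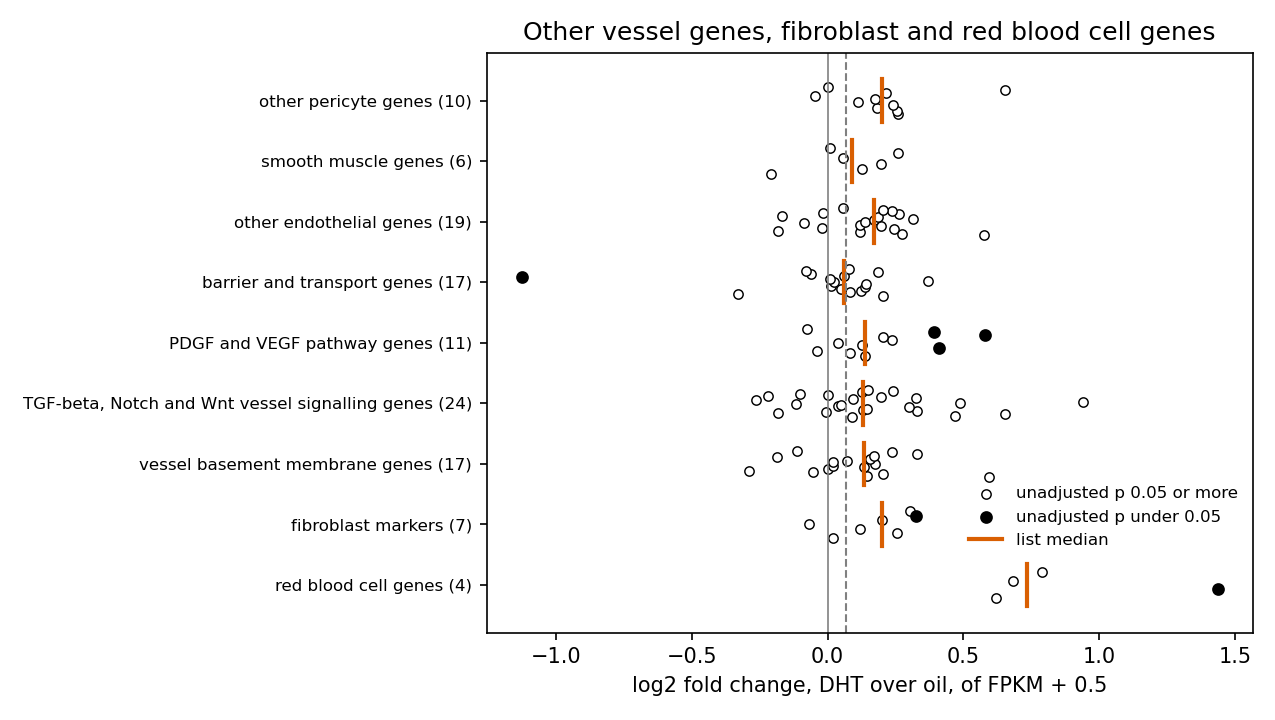
Log2 fold change, DHT over oil, of each tested gene (circles) in lists of other vessel genes and of fibroblast and red blood cell genes, with the number tested in parentheses. Filled circles have an unadjusted p under 0.05, orange bars are list medians and the dashed line is the median of all genes (0.07). The filled circles are Slc2a1 on the left and Vegfa, Vegfb, Pdgfa, Ptgds and Hba-a2 on the right.

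Markers of other cells that sit in or beside vessels differed in part between the groups. The 4 measured red blood cell genes were all higher after DHT, and their summed level was 347 to 1039 FPKM after DHT and 193 to 358 after oil, with none at 0. Hba-a2, an alpha globin gene, was at 282, 589 and 238 FPKM against 148, 159 and 84.0. Globin genes share near-identical copies, so the single values are uncertain. Fibroblast markers summed to 195 to 232 FPKM after DHT and 148 to 191 after oil, nearly all of it from Ptgds at 191 ± 18.2 against 153 ± 22.4 (SD, n = 3 per group). Ptgds is also made by oligodendrocytes and meninges, and the collagen-binding Dcn was at 1.21 to 1.47 against 1.23 to 1.61 FPKM. Microglia and macrophage markers, which matter for Pecam1 and Anpep, summed to 52.1 to 75.5 against 53.8 to 71.3 FPKM. Markers of choroid plexus and ependyma ranged from 2.05 to 32.1 against 3.72 to 80.5 FPKM and were highest in oil 1. The part of these cells in the vessel gene values was not tested.

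Across the 6 libraries the members followed each other in part. Pearson's r of log2 values was above 0 for 23 of 28 pairs of members, with a median of 0.39. It was highest for Anpep and Flt1 (0.91) and for Abcc9 and Vtn (0.89) and lowest for Acta2 and Rgs5 (-0.73), both of them mural. All members were lowest in an oil library, 4 of them in oil 2, and 6 of 8 were highest in a DHT library. The share of all genes with such an order was not counted. Gene values summed to 94871 to 96063 FPKM after DHT and to 87148 to 89596 after oil. Of all genes tested 63.6% were higher after DHT as deposited, and 51.4% with centred libraries. The genes whose pattern was most like the mean of the 6 mural members, among 10076 others, were Myo19 (r = 0.99), Foxj2 (0.99) and Slc3a2 (0.99). Those most like the mean of Flt1 and Pecam1 were Srgn (0.98), Nrd1 (0.98) and Ints7 (0.98). These values describe 6 libraries that share their scaling, out of a large number of genes searched.

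Circular RNAs, closed loops made by back-splicing, were listed for none of the 9 members in any library, by gene name or by position. The lists start at 2 back-splice junction reads, so a circle with 1 read would not appear. The libraries held 43512 to 55325 junction reads out of 143 to 177 M (mega) mapped reads. Of all 11368 tested genes 29.2% hosted a listed circle, and of the 9058 with a mean no higher than that of Rgs5 26.1% did. Among 19 other endothelial, 6 smooth muscle and 11 PDGF and VEGF pathway genes with a tested level 0 hosted one, against 2 of 10 pericyte genes, 3 of 17 barrier genes, 3 of 17 basement membrane genes and 6 of 24 genes of TGF-beta, Notch and Wnt signalling. Outside the tested genes of those lists, a circle of the endothelial gene Egfl7 was listed with 3 reads in DHT 1 and one of the smooth muscle gene Myocd with 2 reads in oil 2. The most abundant of these was a circle of Lrp6, a Wnt co-receptor gene (chromosome 6, 134506196 to 134513419), with 11, 20 and 10 reads after DHT and 22, 25 and 12 after oil (edgeR adjusted p = 0.996). A circle of the tight junction gene Tjp1 (chromosome 7, 65326262 to 65337146) had 9, 10 and 7 reads against 12, 8 and 5. No circle of 2524 passed edgeR's test (0%, with 79 at an unadjusted p under 0.05, and 0 by DESeq2, with 73).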

How the data were processed

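Per the file headers, the authors gave FPKM for 315379 events (transcript starts, ends and splice choices) of loci they assembled. Deposited counts of junction reads start at 2 per circular RNA. From the authors' score, whole junction reads scaled to G (giga) reads mapped, depth was worked out. The submitters' processing notes list HISAT2 2.0.1, BWA, cutadapt and bcl2fastq 2.17.1.14; which program assembled loci or called circles is not stated. The notes name mm9, yet 99.8% of 25537 genes overlapped their GRCm38 position, so GRCm38 is used. The counting method, and so the treatment of overlapping genes, is not known.

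Of 32348 identifiers 99.7% matched a symbol. Gene values (mean of at least 0.5) and events were tested with limma 3.58.1 (trend, log2(FPKM + 0.5), R 4.3.3) and circles of at least 20 reads with edgeR 4.0.16, with DESeq2 1.42.0 as an alternative, all with Benjamini-Hochberg adjustment. Choices between exon forms were compared where both forms together averaged at least 0.5 FPKM and inclusion lay between 1% and 99%. An exact 0 can be a failed estimate. No 2 libraries of a group were duplicates (chi-square of circle counts over its degrees of freedom, 2.22 to 3.78). In simulated gene data limma found 16 of 67 genes set to change 1.5-fold, 39 of 67 set to 2-fold and 55 of 66 set to 3-fold, with 3 false calls. Named list genes are the 2 most abundant of each list and up to 3 with an unadjusted p under 0.05; some of these are not reported here. Promoters are RefSeq's, and 7 of 9 members matched. Python 3.11.15, pandas 2.3.3 and matplotlib 3.10.9 were used. Members and lists were chosen with earlier results of these data known.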

Additional observations from a re-analysis of the deposited data

How the results depend on the processing

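No paired analysis was possible because the numbers 1 to 3 were given in accession order, and the sample numbers in the labels are not shared between the groups. Of 124 alternatives over the members 113 gave a test, 0 of these passed the threshold, and 117 of the 124 kept the sign. For Rgs5 the log2 fold change became -0.0080 with centred libraries and ran from -0.11 to 0.22 with 1 library left out, the lower end without oil 2. Acta2 became -0.050 without DHT 2 and oil 3 together. Pecam1 ran from -0.13 to 0.14 with 1 library left out and became 0.21 without DHT 2 and oil 3 together. The difference of Anpep, 0.23 without a test, became 0.40 with a pseudocount of 0.1 FPKM, and Pecam1 fell below the level tested with first exons only. The cause of these shifts was not tested. Abcc9 (0.18 to 0.37), Pdgfrb (0.15 to 0.38), Vtn (0.07 to 0.22) and Flt1 (0.07 to 0.33) stayed above 0 throughout.

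Leave-one-out values of the Pecam1 exon shares were added after seeing the data. The 2 genes called of 11368 became 1 with a pseudocount of 0.1, 1 with a mean of at least 1 FPKM, 1 without DHT 2 and oil 3 together, 0 with first-exon sums only, 0 with last-exon sums only and 0 with the fullest event of each locus (838 at an unadjusted limma p under 0.05), and 0 to 4 with 1 library left out, 4 of them without DHT 2. Events called, 36 of 74779, became 23 with a mean of at least 1 FPKM and 19 to 32 with 1 library left out, 19 each without DHT 1 or oil 1. Circles called, 0 at 20 reads by edgeR, became 6 with at least 6 reads, 5 with every listed circle, and 0 to 1 with 1 library left out, 1 without DHT 2; no member hosted any. In the simulation with 3 libraries per group, 16 of 67 genes set to change 1.5-fold were found, so most were missed, and 39 of 67 set to 2-fold. Sizes between these were not simulated. The simulated noise was drawn for each gene on its own, without variation shared across a library.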

Other observations

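Lists of other hippocampal cells were counted with the same fit, with 0 genes past limma's adjusted threshold in each. Of 8 astrocyte markers 6 were higher after DHT (4 with centred libraries), with Slc1a2 at 163 ± 6.24 against 158 ± 5.21 FPKM and Slc1a3 at 38.4 ± 11.6 against 42.7 ± 1.58 (SD, n = 3 per group). Gja1, the astrocyte connexin gene, named after its values were seen, was lower without overlap, at 16.3, 15.5 and 6.57 against 19.0, 17.3 and 18.9 FPKM. The astrocyte markers S100b (20.6, 19.4 and 20.4 against 17.7, 16.9 and 18.5) and Aldh1l1 (6.72, 6.48 and 6.41 against 6.23, 4.98 and 5.86) were higher without overlap. Of the 8 markers 2 were thus higher and 1 lower in this way, where 12% and 3.15% of all genes tested were. All 6 oligodendrocyte markers were higher (5 with centred libraries), with Mbp at 277 ± 33.0 against 228 ± 42.0. Of 7 microglia and macrophage markers 6 were higher (5 with centred libraries). C1qb was at 23.2 ± 3.81 against 18.0 ± 3.65 and C1qa at 17.0 ± 4.61 against 15.7 ± 5.43. Of 7 neuron markers 3 were higher, with Slc17a7, a vesicular glutamate transporter gene, at 66.5, 51.4 and 90.5 against 35.7, 42.2 and 55.2 FPKM. Camk2a was at 241 ± 85.8 against 174 ± 70.3 and Snap25 at 300 ± 130 against 317 ± 27.4.

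The choroid plexus gene Ttr was at 0.131, 0.385 and 29.2 FPKM after DHT and 76.4, 12.4 and 1.78 after oil, and Clic6 at 0.442, 1.13 and 0.912 against 1.34, 1.09 and 1.01. Hippocampal field markers were split, 2 of 4 higher, with Zbtb20 at 10.5 ± 6.21 against 10.6 ± 7.00 FPKM and Wfs1 at 7.52 ± 4.42 against 9.62 ± 2.11. Striatal markers were also split, 4 of 8 higher (3 with centred libraries), with Penk at 120 ± 39.6 against 120 ± 2.74 FPKM and Ppp1r1b at 68.7 ± 25.2 against 73.3 ± 11.6. The striatal list summed to 185 to 349 FPKM after DHT and 266 to 297 after oil. The field list summed to 10.9 to 32.3 against 13.5 to 29.0 FPKM, and both sums were lowest in DHT 1. The striatal marker Drd1 and the field markers Dsp and Lct were at 0 in every library. The part of striatal tissue in these libraries, and in the vessel gene values, was not tested. Among red blood cell genes Hbb-bs was at 170 ± 131 against 87.2 ± 31.9, and among fibroblast markers Col6a1 was at 9.82 ± 0.767 against 9.05 ± 1.37 FPKM.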
